A study of Mus musculus with 2 samples.

Results

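The hypoxia-inducible factors and genes they are known to control were compared between mouse hearts 3 days after myocardial infarction and hearts 3 days after a sham operation. The 10 genes were taken by name, as every probe set whose single annotated symbol was Hif1a, Epas1, Egln1, Egln3, Adm, Ankrd37, Ndrg1, Car9, Kdm3a or Ddit4, out of 18193 genes on the array. All 10 were on the array, with 21 probe sets, and all were bright enough to be compared, meaning that the brightest probe set of each reached the array median in at least 1 group. Of the 21 probe sets, 20 did so.

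Both groups were male C57BL/6J mice, 10 weeks old. In the infarct group the left anterior descending coronary artery was tied permanently, and in the sham group the operation was done without the tie. For each group, whole-heart RNA of 3 mice was combined and put on 1 array. There were no replicates, the tissue label did not separate infarct from remote muscle, and every difference given sets 1 pool against the other, without a test. In a bulk sample of this kind, fewer cells of a type and less RNA per cell cannot be told apart. All values are RMA values on the log2 scale, on which a difference of 1 is 2-fold.

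Hypoxia-inducible factors are pairs of an oxygen-labile alpha subunit (HIF-1α, encoded by Hif1a, or HIF-2α, encoded by Epas1) and a stable beta subunit encoded by Arnt. In oxygenated cells, prolyl hydroxylases encoded by the Egln genes mark the alpha subunit, and the von Hippel-Lindau protein then delivers it for degradation. When oxygen falls, the alpha subunit accumulates and genes for glucose uptake, pH control, vessel growth and survival are switched on. The pathway is therefore controlled largely at the protein level, which an mRNA array does not measure.

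The 10 genes went in both directions, and the members of each paralogous pair among them parted. In the infarct pool, Ddit4 and Car9 were at least 2-fold higher, Egln3, Hif1a and Adm were higher by 0.62 to 0.75, Ankrd37, Ndrg1 and Kdm3a were higher by 0.13 to 0.32, and Epas1 and Egln1 were lower, with differences of -0.42 and -0.92. The count past 2-fold was thus 2 of 10 higher and 0 of 10 lower, against 3.73% and 1.26% of the 11961 genes compared. Above 0 lay 8 of the 10, against 49.5% of all genes compared. The median of the 10 genes was 0.47, whereas that of all genes was 0.

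The position of 0 was itself uncertain. The array medians were nearly equal, but the mean difference of 8 housekeeping genes was 0.46 (from 0.0099 to 1.12 for Gusb), by their brightest probe sets. That of the 18 probe sets for spiked-in hybridisation controls was -0.32. The housekeeping centre is itself uncertain, since Actb entered it at 0.82 while its other bright probe set gave -0.62. Polr2a entered at 0.20 while its other bright probe set gave -0.17. Actb and Polr2a are named after their values were seen. Centring on the housekeeping genes moved the median of the 10 genes to 0.011, and 5 of 10 then lay above 0. It also moved the median of all genes to -0.46. Such a centring shifts every gene alike, so that the gap between the 10 genes and all genes could not change. Ankrd37, Ndrg1 and Kdm3a changed sign with the housekeeping genes as the centre. By their brightest probe sets or the mean over probe sets, Ddit4, Car9, Egln3, Hif1a and Adm stayed above 0 in all 11 settings (10 for Car9, which the stricter filter drops). Epas1 and Egln1 likewise stayed below 0. Dimmer probe sets did not all hold their sign. Centring on the housekeeping genes takes off 0.46, which puts the dimmer probe sets of Egln3 (0.43) and Adm (0.38) below 0. Centring on the hybridisation controls adds 0.32 and puts the dimmer probe set of Epas1 (-0.31) above 0. Among 5190 genes with several bright probe sets, the pooled SD between the differences of those probe sets was 0.23. As deposited, all 6 of the 10 genes with several bright probe sets had these on the same side of 0.

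**Figure D1:**
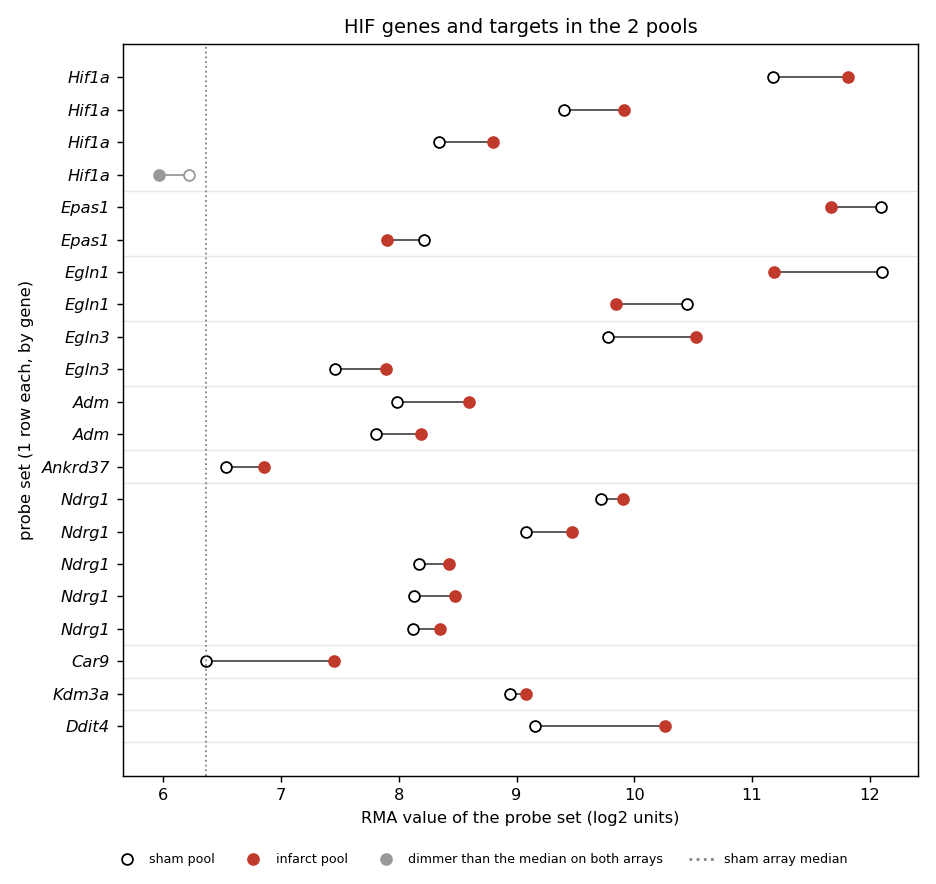
RMA values (log2 units) of the 21 probe sets of the 10 genes, 1 row per probe set, with open symbols for sham, red symbols for infarct, and grey for the probe set that was dim on both arrays. Both probe sets of Epas1 and of Egln1 lay lower in the infarct pool, and every bright probe set of the other 8 genes lay higher.

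Hif1a, the gene of the widely expressed oxygen-labile subunit, was higher in the infarct pool. Its brightest probe set read 11.18 in sham hearts and 11.81 in infarct hearts, a difference of 0.63 (1.55-fold). The other bright probe sets gave 0.46 and 0.51. The remaining probe set of Hif1a, dim on both arrays, gave the opposite sign (6.22 and 5.96, difference -0.26), and the mean over all 4 probe sets gave 0.34. Epas1, the gene of the subunit best known from endothelium, went the other way. Its probe sets read 12.09 and 8.21 in the sham pool and 11.67 and 7.90 in the infarct pool, differences of -0.42 and -0.31. The gap between Hif1a and Epas1 was 1.05 (2.07-fold) by their brightest probe sets and ran from 0.77 to 1.05 over 6 pairs of bright probe sets. Centring an array moves both genes alike, so that this gap does not depend on where 0 lies.

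By their brightest probe sets, the 7 endothelial markers ran from -0.15 (Tek, an angiopoietin receptor) to 0.56 (Pecam1, an adhesion molecule), with a median of 0.24. None differed by 2-fold. Erg gave 0.28 by its brightest probe set and -0.21 by the other bright one, and is named after its value was seen. As deposited 5 had positive differences, against 1 with the housekeeping genes as the centre (median -0.22) and all 7 with the hybridisation controls as the centre (median 0.56). Epas1 lay at -0.88 and -0.10 under these centrings.

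The genes of the oxygen sensors parted more widely. Egln1 encodes PHD2, the main prolyl hydroxylase that marks HIF-1α in most cells. It read 12.11 in sham and 11.18 in infarct hearts by its brightest probe set (difference -0.92, 1.90-fold lower), and 10.45 and 9.84 by the other (difference -0.61). A lower difference was found for 1.74% of the genes compared. Egln3 encodes PHD3, another isoform. It read 9.78 and 10.52 by its brightest probe set (difference 0.75, 1.68-fold) and 7.46 and 7.89 by the other (difference 0.43). The gap between Egln3 and Egln1 was 1.67 (3.18-fold), or 1.04 to 1.67 over 4 pairs of probe sets. The remaining isoform gene, Egln2, lay between them at 0.042 (9.20 and 9.24). Egln1 passed 2-fold only after centring on the housekeeping genes (-1.38), and Egln3 only after centring on the hybridisation controls (1.07).

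By contrast, the rest of the HIF machinery differed less by its brightest probe sets. Of 14 genes listed for the beta subunits, the asparagine hydroxylase, the degradation complex and the coactivators, 13 were bright enough. Their median was -0.088, with 4 above 0, 8 below 0 and 1 (Siah2) with equal values, and none differed by 2-fold. The beta subunit gene Arnt differed by 0.029 (8.80 and 8.83) by its brightest probe set, and its 4 bright probe sets ran from -0.35 to 0.050. Vhl differed by 0.16 (7.12 and 7.28), and Hif1an, which encodes the hydroxylase that blocks coactivator binding, by -0.15 (8.80 and 8.65). Hif3a, which encodes a further alpha subunit, gave -0.27 by one bright probe set and 0.27 by the other, so that its probe sets disagreed in sign. By brightest probe sets, the largest difference below 0 was that of Cited2 (-0.42), whose protein competes with HIF-1α for coactivators, and the largest above 0 that of Eloc (0.19), a subunit of the degradation complex. Dimmer probe sets of the coactivator gene Crebbp and of Cul2, a ligase scaffold gene, reached -0.64 and -0.56. The 4 bright probe sets of Eloc ran from -0.016 to 0.46. Crebbp, Cul2 and Siah2 are named after their values were seen. The direction of this list depended on the scaling, with 13 of 13 below 0 after centring on the housekeeping genes and 12 of 13 above 0 after centring on the hybridisation controls. The median of all genes was -0.46 and 0.32 under these centrings.

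Ddit4 and Car9 had the highest positive differences of the 10 genes, and which of them led depended on the scaling. Ddit4 encodes REDD1, which restrains the growth kinase complex mTORC1 in hypoxia and other stress. Its single probe set read 9.15 in sham and 10.26 in infarct hearts (difference 1.11, 2.16-fold), and 345 of the 11961 genes had a larger one. Car9 encodes carbonic anhydrase IX, a membrane enzyme that exports acid equivalents and serves as a common marker of hypoxic tissue. Its single probe set read 6.36 in the sham pool, which was at the array median, and 7.45 in the infarct pool (difference 1.08, 2.12-fold). Neither gene has a second probe set to compare. Both lay under 2-fold after centring on the housekeeping genes (0.65 for Ddit4 and 0.62 for Car9) and stayed past it in all other settings in which they were measured.

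The other target genes among the 10 had smaller differences than Ddit4 and Car9. Adm, the gene of the vasodilator peptide adrenomedullin, read 7.98 and 8.60 by its brightest probe set (difference 0.62) and 7.81 and 8.19 by the other (0.38). The brighter one carries the suffix _x_at, which marks probes that can bind other transcripts, and the smaller difference comes from the more specific one. Ankrd37, an ankyrin repeat gene used as a hypoxia marker, read 6.53 and 6.86, a difference of 0.32 close to the array median. Ndrg1 encodes a stress-induced protein of cell growth and differentiation. Its 5 probe sets gave differences from 0.19 to 0.39. The brightest of them, also an _x_at probe set, read 9.71 and 9.91 and gave the smallest difference. Without _x_at and _s_at probe sets, Ndrg1 gave 0.35. Kdm3a, the gene of a histone H3 demethylase, read 8.95 and 9.08, a difference of 0.13 that is smaller than the SD between probe sets. Of all genes compared, 36.2% had a higher difference than Kdm3a, 30.5% a higher one than Ndrg1, and 21.0% a higher one than Ankrd37. By their brightest probe sets, these 3 genes were thus not set apart from the bulk of the array.

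**Figure D2:**
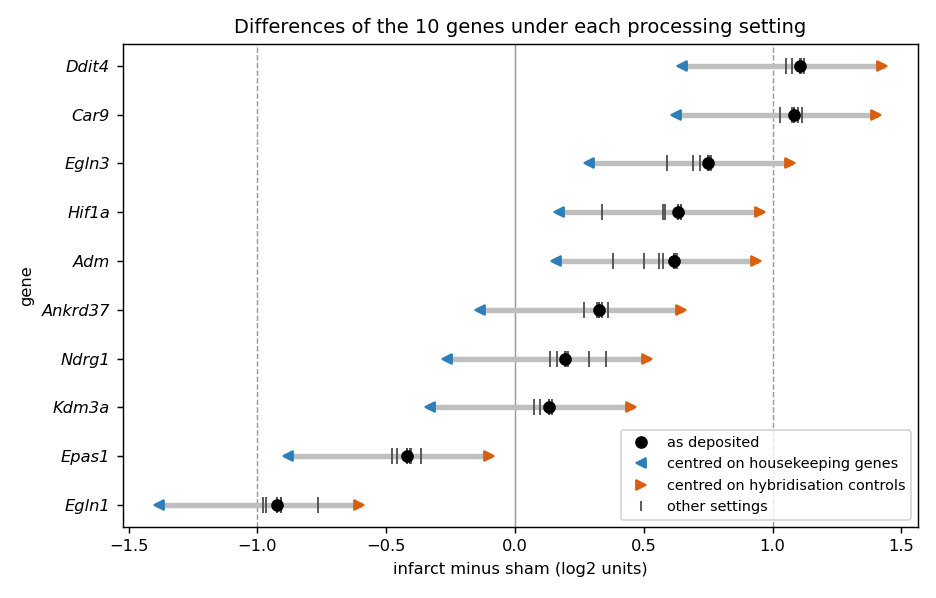
Infarct minus sham (log2 units) of each of the 10 genes as deposited (black), after centring on housekeeping genes (blue) or hybridisation controls (orange) and under the other settings (ticks), with grey bars from the lowest to the highest and dashed lines at 2-fold. The bars of Ankrd37, Ndrg1 and Kdm3a cross 0, and those of the other 7 genes do not. The centrings are shown for the brightest probe set of each gene only.

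The promoters of these genes were searched for the HIF core motif, since HIF binding has long been tied to it. RefSeq windows (GRCm38.p6) were at hand for 8 of the 10 genes, all but Epas1 and Ndrg1, and the letters ACGTG and GCGTG were searched on both strands of the 250 bases before each annotated transcript start. Shown here are the promoters of Ddit4, a gene past 2-fold, and of Egln3 and Egln1, the oxygen sensor genes that parted, each 5′ to 3′ along the gene. For Car9, whose upstream bases overlap another annotated gene, the last 30 bases before the start are shown. Capitals mark the motif, which reads CACGT or CACGC where it lies on the opposite strand.
Ddit4, chr10:59951771-59952020, minus strand: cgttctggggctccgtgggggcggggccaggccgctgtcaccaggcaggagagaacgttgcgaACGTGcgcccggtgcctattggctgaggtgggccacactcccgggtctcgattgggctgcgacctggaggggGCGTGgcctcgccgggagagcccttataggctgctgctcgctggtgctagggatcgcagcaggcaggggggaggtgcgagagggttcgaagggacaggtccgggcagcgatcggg
Egln3, chr12:54203875-54204124, minus strand: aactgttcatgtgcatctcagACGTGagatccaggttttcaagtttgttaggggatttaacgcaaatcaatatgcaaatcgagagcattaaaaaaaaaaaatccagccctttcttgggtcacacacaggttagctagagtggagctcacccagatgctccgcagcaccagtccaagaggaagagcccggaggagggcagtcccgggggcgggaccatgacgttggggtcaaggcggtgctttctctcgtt
Egln1, chr8:124949255-124949504, minus strand: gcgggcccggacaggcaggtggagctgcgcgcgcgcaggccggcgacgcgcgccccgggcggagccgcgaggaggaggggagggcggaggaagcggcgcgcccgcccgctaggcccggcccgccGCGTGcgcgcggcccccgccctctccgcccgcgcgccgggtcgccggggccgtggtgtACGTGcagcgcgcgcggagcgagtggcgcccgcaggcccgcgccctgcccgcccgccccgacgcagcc
Car9, chr4:43506996-43507025, plus strand: ctatttccgatgCACGTacagcccgtccac

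Each of the 8 genes held at least 1 match, whichever way its mRNA differed. There were 16 matches in all, 9 of ACGTG and 7 of GCGTG, and the matches at 1 place in Hif1a and 1 in Ankrd37 overlap on opposite strands. With the base before the transcript start counted as -1, the match of Car9 began at -18, those of Ddit4 at -187 and -115, that of Egln3 at -229, and those of Egln1 at -126 and -68. Of the 3 annotated starts of Kdm3a, only 1 had a match. The motif is common. By gene it was held by 41.5% of all genes with a window and by 47.1% of the protein-coding ones. By window, 8 of the 10 windows of these genes held it (80%), 38.6% of all 32851 windows of this length, 44.0% of those of protein-coding genes, and 74.5% of those of the further HIF targets. It contains a CG pair, and the windows of the 8 genes held a median of 16.5 such pairs. The median was 6 over all windows, 10 over those of protein-coding genes and 19 over those of the further HIF targets. The part of CG content in the matches was not tested. Over the array, genes with a match were not more often past 2-fold. Of the 5829 genes compared that held either core, 3.35% were at least 2-fold higher, and of the 3802 that held none, 4.16%.

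**Figure D3:**
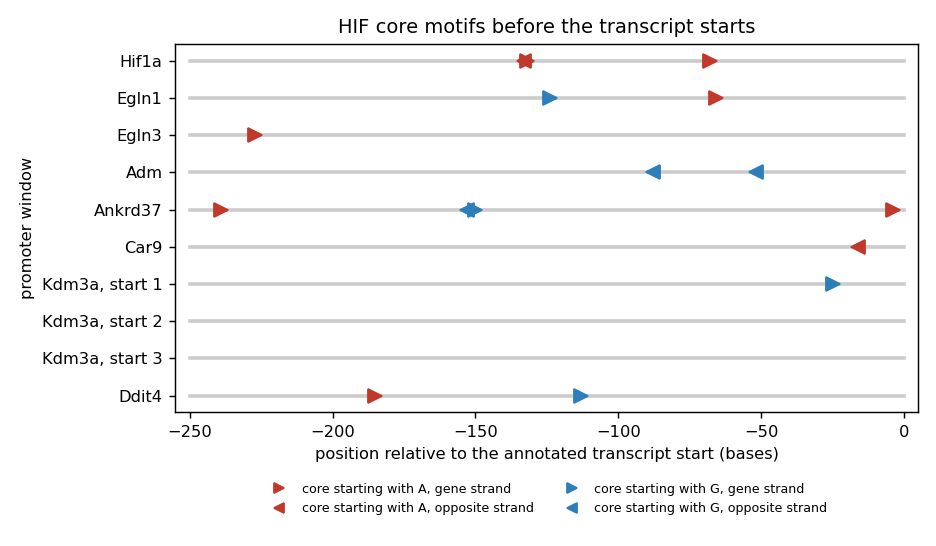
Positions of the HIF core motifs in the 250 bases before the annotated transcript start (0) of 8 of the 10 genes, 1 line per start, with colour for the first base of the core and the pointing side for the strand. Egln1, which was lower in the infarct pool, held matches as did the genes that were higher, and 2 of the 3 starts of Kdm3a held none.

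Further HIF targets, listed by function, also lay on both sides of 0. Of 42 listed genes, 36 were measured, with 21 above 0 and 15 below 0, 6 at least 2-fold higher and 1 at least 2-fold lower. Over all genes compared, 49.5% lay above 0, 3.73% were at least 2-fold higher and 1.26% lower. The median of the 36 targets was 0.18. With the housekeeping genes as the centre, 11 of the 36 lay above 0 and 25 below, and 2 were at least 2-fold higher and 3 lower. Their median was then -0.28, and that of all genes -0.46. With the hybridisation controls as the centre, 31 lay above 0 and 5 below, and 8 were at least 2-fold higher and 0 lower. The direction of these targets as a group thus depended on the scaling. These 2 centrings shift every gene alike, so that the gap between the median of the targets and that of all genes could not change. The 7 measured targets for vessels and iron had a median of 0.48, and 3 were at least 2-fold higher. Hmox1, the heme-degrading enzyme heme oxygenase-1, stood out with 8.19 in sham and 10.52 in infarct hearts (difference 2.33, 5.03-fold), ahead of Angptl4, an inhibitor of lipoprotein lipase (1.43), and the chemokine receptor gene Cxcr4 (1.06). With the housekeeping genes as the centre, the median of this list was 0.016 and of the 3 genes only Hmox1 passed 2-fold. Lowest was the gene of the ligand of that receptor, Cxcl12 (-0.25). Vegfa, the vascular growth factor gene most often used to represent this pathway, differed by only -0.0069 (9.69 in both pools), and its other probe set by 0.16; it is named after its value was seen.

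Targets for matrix and secretory enzymes had a median of 0.55 by their brightest probe sets, and all 5 measured lay above 0. The median was 0.82 with probe sets averaged, and 0.091 with the housekeeping genes as the centre. The 3 bright probe sets of Ero1a ran from 0.55, by the brightest, to 1.31, and Ero1a is named after its value was seen. The lysyl oxidase gene Lox was at least 2-fold higher (9.95 and 11.69, difference 1.74). P4ha2, a collagen prolyl hydroxylase subunit gene, had the smallest difference (0.22, named after its value was seen). Targets for glucose metabolism had a median of 0.15 over 11 genes and lay on both sides of 0. The lactate exporter gene Slc16a3 (1.41) and the glucose transporter gene Slc2a1 (1.02, from 0.89 to 1.14 over 3 probe sets) were at least 2-fold higher. With the housekeeping genes as the centre neither passed 2-fold, and the median of the list was -0.31. Pdk1, the gene of a kinase that inhibits pyruvate dehydrogenase, was lowest at -0.86, although its 3 bright probe sets ran from -0.86 to -0.17.

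The remaining targets lay on both sides of 0. Those for mitochondria, lipid and pH had a median of -0.13 over 7 genes, 2 above 0 and 5 below. Vldlr, the gene of a lipoprotein receptor, was at least 2-fold lower (12.56 and 11.52, difference -1.04), with all 6 probe sets from -1.56 to -1.04, and Plin2, the gene of a lipid droplet protein, was the highest (0.87). Targets for transcription and chromatin had a median of -0.11 over 6 genes, 3 above 0 and 3 below. They ran from -0.58 (Mxi1, an antagonist of MYC) to 0.35 (Jmjd6, a hydroxylase gene), and none differed by 2-fold. With the hybridisation controls as the centre, these medians were 0.19 and 0.21.

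**Figure D4:**
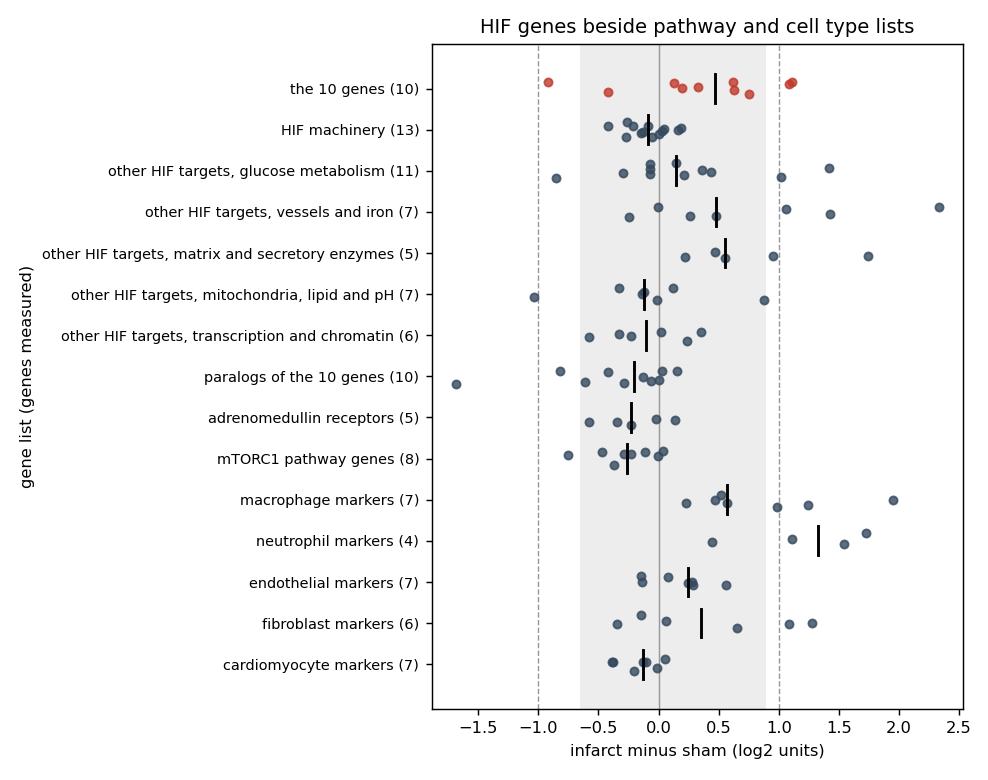
Infarct minus sham (log2 units) of the 10 genes (red) and of the pathway and marker lists (dark), 1 point per gene bright enough, with medians as black bars, dashed lines at 2-fold and a grey band from the 5th to the 95th percentile of all 11961 genes (-0.65 to 0.89). The 10 genes, the HIF machinery (from -0.42 to 0.19) and the target lists spread to both sides of 0, except the list of matrix and secretory enzymes, which lay above 0. Positive medians under 0.46 and negative ones nearer to 0 than -0.32 change sign under one of the centrings.

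Of 10 paralogs of these genes, 2 lay above 0, 7 below 0 and 1 at 0 as deposited, with a median of -0.21, and 6 lay above 0 with the hybridisation controls as the centre. The carbonic anhydrase genes listed as paralogs lay below 0 as deposited, and the rest of that family was not examined here. The muscle isoform gene Car3 was at least 2-fold lower (10.04 and 8.35, difference -1.68). Car4, Car14 and Car2 differed by -0.82, -0.61 and -0.063, the last of these smaller than the SD between probe sets. Car12, the other carbonic anhydrase gene known as a HIF target, was dim in both pools (4.80 and 4.47). Among the Ndrg genes, Ndrg2 differed by -0.42, Ndrg4 by 0.15, which was the highest of the paralogs, and Ndrg3 by 0. Ddit4l, the paralog of Ddit4, differed by -0.13, and Kdm3b, a demethylase gene related to Kdm3a, by -0.28. Car4, Car14, Car2, Car12, Ndrg2, Ndrg3, Ddit4l and Kdm3b are named after their values were seen.

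The genes that act with Adm and Ddit4 mostly lay below 0 as deposited. Adrenomedullin acts through the receptor encoded by Calcrl together with a RAMP protein. Of 5 genes of this receptor system that were bright enough, Calcrl lay highest at 0.13 and Ramp1 lowest at -0.58, with a median of -0.23. Of 8 mTORC1 pathway genes, 7 lay below 0 by their brightest probe sets, with a median of -0.26. By these they ran from -0.75 for Sesn1, a stress-induced inhibitor of mTORC1, to 0.034 for Rptor, the gene of the scaffold subunit of mTORC1. The other bright probe sets of Sesn2, Tsc1 and Mtor lay above 0, at 0.46, 0.11 and 0.016, while those of Sesn1 and Sesn3 lay below 0. Sesn2, Sesn3, Tsc1 and Mtor are named after their values were seen. None of these 13 genes differed by 2-fold, but Ramp1 and Sesn1 did when centred on the housekeeping genes. Centring on the hybridisation controls adds 0.32 to each value and takes both medians above 0. Over all 72 genes measured on the pathway lists, 6 were at least 2-fold higher and 2 lower, against 3.73% and 1.26% of all genes compared. All 6 higher ones were among the further HIF targets.

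Markers of other cell types differed as well. By their brightest probe sets, all 7 macrophage markers lay above 0 (median 0.57, from 0.23 to 1.95). Msr1, a scavenger receptor gene, was at 1.95 (from 1.06 over 3 probe sets) and Cd68 at 1.24. The mean level of the 7 was 9.82 in sham and 10.67 in infarct hearts. Of 6 neutrophil markers 4 were measured, with a median of 1.33 and mean levels of 7.44 and 8.65. The granule protein genes S100a8 (1.72) and S100a9 (1.54) and the receptor gene Csf3r (1.11) were past 2-fold, Cxcr2 was lowest at 0.45 and was dim in sham hearts (5.91 and 6.36), so that it was measured only through the infarct array, and Mpo, the defining peroxidase of neutrophil granules, was dim in both pools (5.14 and 5.33). Cxcr2 and Mpo are named after their values were seen.

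By their brightest probe sets, the 6 fibroblast markers ran from -0.34 (Dcn) to 1.28 (Postn), with a median of 0.36 and mean levels of 10.96 and 11.39. Thy1 was also at least 2-fold higher (1.09). The other bright probe set of Dcn gave -0.72 and that of Col1a1 gave 0.19, against 0.65 by its brightest. The 3 bright probe sets of Pdgfra ran from -0.14 to 0.28. Col1a1 and Pdgfra are named after their values were seen. The 7 endothelial markers had mean levels of 9.17 and 9.33. The 7 cardiomyocyte markers, which check the tissue, were bright in both pools, with mean levels of 14.41 and 14.24. By their brightest probe sets they ran from -0.39 (Ryr2) to 0.055 (Actc1) with a median of -0.13. Dimmer bright probe sets reached -0.67 for Myh6, -0.66 for Ryr2, -0.60 for Tnnt2 and -0.34 for Pln. The brightest probe sets of Myh6, Myl2 and Actc1 lay near the highest value on the arrays. Whether differences are reduced there was not tested. Myh6, Tnnt2, Pln and Myl2 are named after their values were seen. Only 2 erythroid markers were measured, Alas2 (-0.0084) and Hbb-b2 (-0.049), with a median of -0.028; Alas2 is named after its value was seen. With the housekeeping genes as the centre, the medians of the macrophage, neutrophil and fibroblast markers were 0.11, 0.87 and -0.10. The part of these cell types in the differences of the 10 genes was not tested.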

How the data were processed

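Whole hearts were frozen by the authors after surgery, RNA was extracted with ISOGEN and an RNeasy kit, pools of 3 hearts were made, and labelled cRNA of each pool went on 1 GeneChip Mouse Genome array. The deposited values are RMA values on the log2 scale, background corrected, normalized between the arrays and summarised per probe set by the authors; the version of RMA is not given in the sources used here. RMA gives both arrays nearly the same distribution (medians of 6.36 and 6.35), so total mRNA per heart cannot be compared.

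Differences are infarct minus sham. Each gene took the value of its brightest probe set (highest mean of both arrays). It entered the comparison if this value was not under the array-wide median (45101 probe sets) in both pools. Of the probe sets, 932 annotated to several symbols, 9211 annotated to none and 64 controls were left out. The Entrez identifiers of all 10 genes matched RefSeq genes (GRCm38.p6) with the same symbol. With 1 array per group no test and no p-value were possible, and precision is limited by having 1 array a group. The only measure of error is the SD between probe sets of a gene, which covers the probes and not the mice. A log2 difference of 1 (2-fold) was the threshold, and 1.4 was tried as well.

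The genes, the pathway lists and the markers were chosen with earlier results of these data known. The text names all 10 genes, Hif3a, Arnt, Egln2, Hif1an and Vhl, and of each list the genes past 2-fold and the largest difference of each sign; other names are marked. The lists held HIF machinery, further HIF targets, paralogs, adrenomedullin receptors, mTORC1 pathway genes, markers of macrophages, neutrophils, endothelium, fibroblasts, cardiomyocytes and erythroid cells, and housekeeping genes. The alternatives were 6 scalings, including a loess trend (span 0.4), 2 choices of probe set, no filter and a filter at the 75th percentile. Promoter windows were those of RefSeq (GRCm38.p6), cut to the 250 bases before each transcript start. The procedure was tested on simulated data. Python 3.11.15, numpy 2.4.6, pandas 2.3.3, statsmodels 0.14.6 and matplotlib 3.10.9 were used.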

Additional observations from a re-analysis of the deposited data

How the results depend on the processing

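No paired analysis was possible because each group held 1 array, and for the same reason no sample could be left out. The results depended most on centring. After centring on the housekeeping genes, 0 of the 10 genes were at least 2-fold higher and 1 was lower (Egln1). Their median was then 0.011, and that of all genes -0.46. The pathway lists held 2 genes higher and 8 lower, and 157 of all genes were higher and 915 lower. After centring on the hybridisation controls, the median of the 10 genes was 0.79 and that of all genes 0.32. Of the pathway genes 1 was then lower, and 962 of all genes were higher and 40 lower. At the 75th percentile filter, which drops Car9 and Ankrd37, 1 of the 10 genes was at least 2-fold higher. At a threshold of 1.4, 0 of the 10 genes were higher, 1 pathway gene was lower, and 178 of all genes were higher and 34 lower. Averaging probe sets, leaving out _x_at and _s_at probe sets, quantile normalization, the loess trend, median centring, the poly-A controls, the lack of a filter and the mean in place of the median moved none of these counts by over 1.5 times, nor the median of the 10 genes by as much as the SD between probe sets (0.23). Single genes moved more: Hif1a gave 0.34 as a mean over probe sets, against 0.63, and Adm 0.38 without _x_at probe sets, against 0.62. The median of the matrix and secretory targets moved from 0.55 to 0.82 when probe sets were averaged. Counts are read against a spread between probes alone, and the spread between mice is unknown.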
